A study of Homo sapiens with 14 samples.

Results

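The lysine tRNA genes among the crosslink clusters of TRMT2A, the human methyltransferase that makes 5-methyluridine (m5U) at position 54 of tRNAs, are described here. They were taken from the study's list of clusters by name: of 563 clusters, 44 carry the type tRNA and a lysine name, and joining neighbours under 40 nt apart left 21 loci. The study kept in that list only sites with a minimum count in most of its 5 experiments, so lysine genes seen in fewer are absent. RefSeq has 36 lysine entries, 27 of them of type tRNA, and the 21 loci are among the 36. Of these 21 loci, 11 have the anticodon CTT (tRNA-Lys-CTT) and 10 the anticodon TTT (tRNA-Lys-TTT), out of 248 tRNA loci and 316 loci of all types. For each locus and library the cDNA counts were summed on its strand from 100 nt 5′ of the clusters to 25 nt 3′ of them. The 21 loci held 22799 counts in all. The label fits the genome sequence: bases 34 to 36 of each of the 21 loci are the anticodon of its name. Each locus also has a T at position 54, but the placement of that position allowed only T or A. The length of 73 bases was set by how the genes were cut.

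FICC-Seq, iCLIP and miCLIP were compared in 14 libraries from HEK293, a human embryonic kidney line, and HAP1, a near-haploid human line. FICC-Seq, in 3 libraries per line, captures endogenous TRMT2A on RNA that carries 5-fluorouracil (5FU, 100 µM for 24 h), where the enzyme forms a covalent bond with the fluorinated uridine that it attacks. iCLIP, in 3 libraries per line, captures endogenous TRMT2A crosslinked to RNA by UV light. miCLIP, in 2 libraries from HEK293 cells harvested 24 h after transfection, captures a FLAG-tagged, ectopically expressed TRMT2A whose catalytic glutamate is changed to alanine, so that the enzyme stays bound to the RNA it attacks. The labels call all 14 libraries untreated, and the drug is named in the protocols alone.

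FICC-Seq libraries had between 15982 and 38957 counts, iCLIP libraries between 7002 and 17432, and the miCLIP libraries 39024 and 104605. FICC-Seq and iCLIP of 1 line were sequenced together, whereas the HEK293 and HAP1 libraries, and the miCLIP libraries, lay in different runs, so that cell line and run cannot be told apart. The labels give replicates 1 and 3 of FICC-Seq in HEK293 the same run and barcode, but their counts over loci differed by more (chi-square of 2.15 per degree of freedom) than those of the closest replicate pair, iCLIP replicates 2 and 3 in HEK293 (1.59). The value of 2.15 is the second lowest of the 13 replicate pairs and below the other FICC-Seq pairs (4.64 to 7.90), and both libraries were kept as 2 replicates. The study calls its replicates biological and the labels say no more of their origin, so p-values measure the spread between these libraries. Loci are compared in counts per 1000000 counts of the library (CPM), and a count of 0 allows up to 3 counts, or 428 CPM at the lowest total. This limit covers counting error only.

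Lysine tRNAs carry lysine, one of the charged amino acids, to the ribosome; those with the anticodon CTT read the codon AAG, and those with TTT read AAA and, by wobble, AAG. The T-loop at the 3′ side of a tRNA folds against the D-loop to form the elbow of the L-shaped molecule, and TRMT2A methylates the uridine that opens this loop. A few bases further on lies the adenosine that another enzyme converts to 1-methyladenosine (m1A), a base that stops reverse transcription. After UV crosslinking, reverse transcription usually stops just before the crosslinked base, so counts fall on that base. With a covalently trapped enzyme, as in FICC-Seq and miCLIP, the crosslinked base is more often copied first, so counts for U54 then fall at position 53.

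The sequences below are the loci on which the results turn, read from hg19 on the strand of the gene. Capitals mark the anticodon, positions 34 to 36, and the T-loop, positions 54 to 60, whose first base is the T that becomes m5U.
tRNA-Lys-CTT-2-2: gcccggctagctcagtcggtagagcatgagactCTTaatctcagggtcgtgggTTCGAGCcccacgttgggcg
tRNA-Lys-CTT-3-1: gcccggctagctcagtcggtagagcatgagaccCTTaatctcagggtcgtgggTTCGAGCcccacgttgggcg
tRNA-Lys-CTT-1-2: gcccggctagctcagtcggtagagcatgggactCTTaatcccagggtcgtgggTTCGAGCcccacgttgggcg
tRNA-Lys-CTT-5-1: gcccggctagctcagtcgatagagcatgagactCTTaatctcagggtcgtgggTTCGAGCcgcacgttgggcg
tRNA-Lys-CTT-13-1: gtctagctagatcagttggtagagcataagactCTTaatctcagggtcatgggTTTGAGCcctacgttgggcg
tRNA-Lys-TTT-3-2: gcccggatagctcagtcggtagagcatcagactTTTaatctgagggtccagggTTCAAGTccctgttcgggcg
tRNA-Lys-TTT-6-1: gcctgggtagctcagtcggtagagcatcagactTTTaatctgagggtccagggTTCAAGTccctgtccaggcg
tRNA-Lys-TTT-4-1: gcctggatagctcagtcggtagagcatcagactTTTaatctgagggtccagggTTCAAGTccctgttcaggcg
tRNA-Lys-TTT-7-1: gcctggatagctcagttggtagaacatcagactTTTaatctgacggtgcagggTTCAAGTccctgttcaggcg

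The 21 loci hold 12 distinct genes, 6 of each anticodon. Counted from the 5′ end of the gene, tRNA-Lys-CTT-3-1 differs from tRNA-Lys-CTT-2-2 by T33C alone, and tRNA-Lys-CTT-1-2 by A29G and T41C, so the T-arms of these genes are identical. tRNA-Lys-CTT-5-1 differs by G19A and C62G, and tRNA-Lys-CTT-13-1, which RefSeq lists as a pseudogene, by 9 bases that include G49A, C56T and C63T in the T-arm. The genes taken as the sequence reference of each anticodon, tRNA-Lys-TTT-3-2 and tRNA-Lys-CTT-2-2, differ at 12 bases. A cDNA that ends at position 54 reads only the bases from there to the 3′ end, and over positions 54 to 73 the 21 loci hold 7 distinct sequences. A single one of these is shared by 9 of the 11 CTT loci, tRNA-Lys-CTT-5-1 and tRNA-Lys-CTT-13-1 being the others, and by 10 places in the genome. Another is shared by 6 TTT loci, the 5 copies of tRNA-Lys-TTT-3 and tRNA-Lys-TTT-5-1, and a further one by tRNA-Lys-TTT-4-1 and tRNA-Lys-TTT-7-1, found at 3 places in the genome. Within these sets, reads from position 54 can be placed only by up to 3 genomic bases past position 73, where mature tRNAs carry an added CCA. The values of single loci within a set therefore depend on how uniquely mapping reads were assigned, the effect of which was not tested, and sums over a set are given beside them. The same dependence holds for tRNA-Lys-TTT-6-1, whose end is found at 2 places in the genome and is told apart by 1 base past position 73.

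Lysine tRNAs took a larger share of the library in FICC-Seq than in iCLIP. They held 9.03% ± 0.117 (SD, n = 3) of the counts of FICC-Seq libraries in HEK293 and 9.11% ± 0.342 (n = 3) in HAP1, against 2.81% ± 0.884 and 3.95% ± 0.273 (n = 3 each) in iCLIP. The difference within cell lines was 5.69 percentage points, and no FICC-Seq library overlapped an iCLIP library (two-sided exact permutation test within cell lines, p = 0.005, the smallest of the 400 labelings, adjusted p = 0.0263 over 42 tests). With the replicate number as a block, this and every other FICC-Seq to iCLIP difference of shares called below kept its size but had an adjusted p of 0.0852 by exact permutation, at the smallest p of 2 in 64 labelings. In miCLIP the share was 3.61% ± 0.0299 (n = 2). The anticodons were not represented alike: TTT loci made up 12.8% ± 2.35 of the lysine counts of FICC-Seq in HEK293 and 10.6% ± 3.23 in HAP1, but 40.1% ± 4.83 and 27.4% ± 2.94 in iCLIP, and 43% ± 3.51 in miCLIP. The TTT share was 22.1 points lower in FICC-Seq than in iCLIP (exact permutation p = 0.005, adjusted p = 0.0263).

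The excess in FICC-Seq was larger for the CTT genes. Summed over the 9 CTT loci with the same 3′ end, the level was 78619 ± 1159 CPM in FICC-Seq of HEK293 and 80775 ± 4440 CPM in HAP1, against 16243 ± 4137 and 28057 ± 3273 CPM in iCLIP (n = 3 each). Summed over the 6 TTT loci with the same end, it was 9277 ± 2029 and 6754 ± 1926 CPM in FICC-Seq and 4379 ± 1207 and 5607 ± 997 CPM in iCLIP. The CTT sums were apart by far more than the spread between libraries in both lines. The TTT sums were apart in HEK293, at 7739 to 11576 CPM in FICC-Seq against 3040 to 5384 CPM in iCLIP, and overlapped in HAP1. In the fit of all 316 loci (limma voom, Benjamini-Hochberg), 9 of 11 CTT loci were higher in FICC-Seq than in iCLIP and none lower, and the median log2 fold change of the 11 was 1.95. Of the 10 TTT loci, 2 were higher (tRNA-Lys-TTT-3-2 and tRNA-Lys-TTT-3-4), 2 lower (tRNA-Lys-TTT-6-1 and tRNA-Lys-TTT-7-1) and 6 passed in neither direction, with a median of 0.66. Over all loci, 31.6% were higher and 27.5% lower, with a median of 0.25. The split depended on scaling: 100 loci were higher and 87 lower by library total, but 57 and 123 with size factors from median ratios and 68 and 112 with the tRNA total. The same scalings left 9 CTT loci higher and none lower, with medians of 1.10 and 1.35, but 0 TTT loci higher and 3 lower, with medians of -0.18 and 0.08, so the sign of the TTT median depends on scaling.

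**Figure D1:**
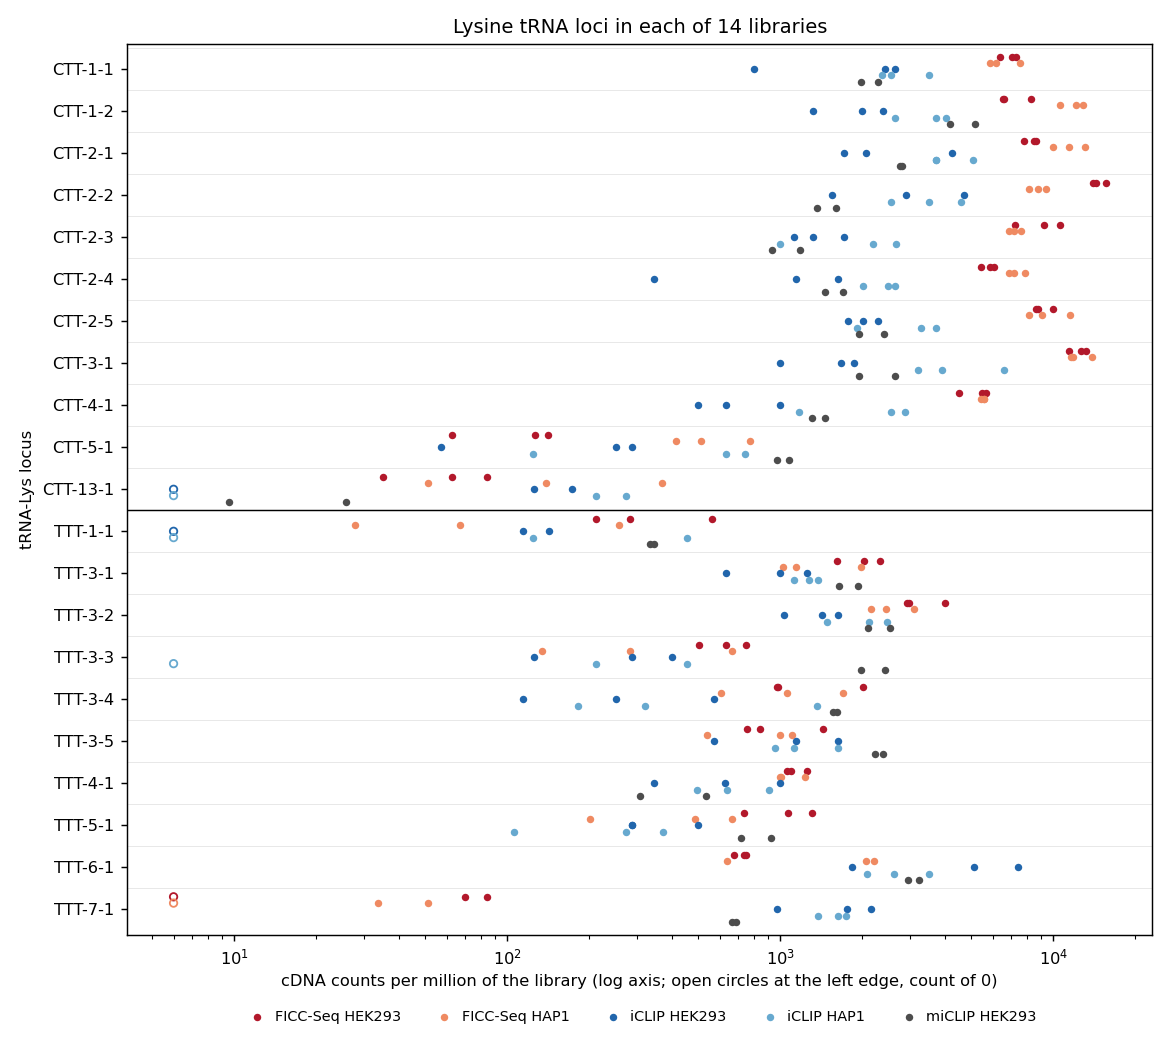
CPM (log axis) on each of the 21 lysine tRNA loci, 1 point per library, coloured by method and cell line, with open circles at the left edge for a count of 0. FICC-Seq points lie above the iCLIP points of the same line at 9 of 11 CTT loci, while at tRNA-Lys-TTT-7-1 they lie below them.

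tRNA-Lys-CTT-3-1, on chromosome 16 from 3207406 to 3207478 on the minus strand within an exon of ENSG00000261889, held the most counts of any lysine locus. In the 3 FICC-Seq libraries it stood at 12689, 11388 and 13191 CPM in HEK293 and at 13893, 11775 and 11628 CPM in HAP1. In iCLIP it stood at 1664, 1002 and 1857 CPM in HEK293 and at 3903, 3186 and 6595 CPM in HAP1. Every FICC-Seq library lay above every iCLIP library, and the difference was 2.27 on the log2 scale (SE 0.24, limma adjusted p = 1.27e-07).

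tRNA-Lys-CTT-1-2, at 79152904 to 79152976 of chromosome 15, plus strand, is in an intron of MORF4L1, which encodes a chromatin protein. Its levels were 6619, 8322 and 6543 CPM in FICC-Seq of HEK293, and 12076, 10581 and 12860 CPM in HAP1. In iCLIP they were 1319, 2379 and 1999 CPM in HEK293 and 2633, 4035 and 3733 CPM in HAP1. The FICC-Seq and iCLIP libraries were again apart, by 1.90 (SE 0.24, limma adjusted p = 1.04e-06), and within FICC-Seq the HAP1 libraries were the higher.

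tRNA-Lys-CTT-2-1, on chromosome 1 from 145395522 to 145395594, minus strand, has no other gene annotated at it. It held 8642, 8510 and 7809 CPM in FICC-Seq of HEK293 and 13018, 11386 and 9985 CPM in HAP1. In iCLIP it held 2065, 4257 and 1714 CPM in HEK293 and 3722, 5097 and 3733 CPM in HAP1. The methods did not overlap, and the log2 difference of 1.60 (SE 0.22, limma adjusted p = 2.88e-06) stands beside 2.27 at tRNA-Lys-CTT-3-1, which has the same T-arm; the gap between these genes was not tested.

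tRNA-Lys-CTT-2-2, with the same 73 bases as tRNA-Lys-CTT-2-1, is at 180634755 to 180634827 of chromosome 5, plus strand, in an intron of ENSG00000286644 on the opposite strand. It was the one CTT locus that passed as lower in HAP1 than in HEK293 in FICC-Seq, at 14333, 14016 and 15583 CPM in HEK293 against 8140, 9442 and 8830 CPM in HAP1. In iCLIP it stood at 1549, 2880 and 4713 CPM in HEK293 and at 2542, 3504 and 4604 CPM in HAP1. Its log2 difference between FICC-Seq and iCLIP was 2.0 (SE 0.22, limma adjusted p = 2.77e-07).

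The remaining CTT loci with counts in every library went the same way, except tRNA-Lys-CTT-5-1, which has a 3′ end of its own. This gene, on chromosome 16 from 3230555 to 3230627, minus strand, had 3, 1 and 4 counts in FICC-Seq of HEK293 and 23, 15 and 20 in HAP1, against 1, 2 and 2 and 7, 7 and 1 in iCLIP. The counts are few in each library and their log2 difference in CPM was -0.24 (SE 0.51, limma adjusted p = 0.689). The pseudogene tRNA-Lys-CTT-13-1, on chromosome 1 from 165566150 to 165566222, plus strand, had 2, 1 and 1 and 11, 5 and 2 counts in FICC-Seq and 3, 1 and 0 and 3, 2 and 0 in iCLIP, at a log2 difference of -0.48 (SE 0.59, limma adjusted p = 0.494).

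Among the TTT genes, tRNA-Lys-TTT-3-2, on chromosome 1 from 204476158 to 204476230, minus strand, held the most counts. Its levels in FICC-Seq were 2951, 4005 and 2920 CPM in HEK293 and 2153, 2444 and 3080 CPM in HAP1. In iCLIP they were 1033, 1628 and 1428 CPM in HEK293 and 2451, 1487 and 2115 CPM in HAP1. The methods were apart in HEK293 and overlapped in HAP1, and the log2 difference of 0.81 (SE 0.28, limma adjusted p = 0.0169) was -0.018 with size factors from median ratios. Its neighbour tRNA-Lys-TTT-3-1, from 204475655 to 204475727 on the plus strand with the same 73 bases, stood at 2024, 2315 and 1618 CPM and 1144, 1028 and 1977 CPM in FICC-Seq. In iCLIP it stood at 631, 1252 and 1000 CPM in HEK293 and 1271, 1380 and 1120 CPM in HAP1. It did not pass the test, with a log2 difference of 0.57 (SE 0.33, limma adjusted p = 0.149).

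tRNA-Lys-TTT-6-1, on chromosome 6 from 27302769 to 27302841, minus strand, ran the other way. Its FICC-Seq levels were 675, 751 and 739 CPM in HEK293 and 639, 2055 and 2208 CPM in HAP1. Its iCLIP levels were 1836, 5133 and 7426 CPM in HEK293 and 2088, 3504 and 2613 CPM in HAP1. The methods did not overlap in HEK293 and overlapped in HAP1, and the locus was lower in FICC-Seq by 1.51 on the log2 scale (log2 difference -1.51, SE 0.41, limma adjusted p = 0.00310).

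tRNA-Lys-TTT-7-1 and tRNA-Lys-TTT-4-1, both on chromosome 6, share their last 20 bases but had different values. tRNA-Lys-TTT-7-1, from 28715521 to 28715593 on the plus strand, had 2, 0 and 2 counts in FICC-Seq of HEK293 and 1, 0 and 2 in HAP1, against 17, 14 and 15 and 18, 13 and 14 counts in iCLIP libraries of lower depth. Every iCLIP library was above every FICC-Seq library, with a log2 difference in CPM of -4.98 (SE 0.47, limma adjusted p = 3.41e-08). The fitted value depends on counts near 0, and the 2 libraries at 0 allow up to 188 and 83.3 CPM. The 7 counts of this locus in all FICC-Seq libraries are under the 10 of the filter. It thus entered the fit only with counts of the other methods, which favoured the lower direction, and nothing is read from its p-value. tRNA-Lys-TTT-4-1, from 27559593 to 27559665 on the minus strand, held 1096, 1251 and 1055 CPM in FICC-Seq of HEK293 and 1009, 1000 and 1232 CPM in HAP1, against 344, 626 and 1000 and 908, 637 and 498 CPM in iCLIP, and did not pass the test (log2 difference 0.76, SE 0.37, limma adjusted p = 0.0811). Their sum was 1186 ± 63.1 and 1109 ± 153 CPM in FICC-Seq and 2280 ± 915 and 2266 ± 263 CPM in iCLIP, so it was higher in iCLIP. The first genomic bases after position 73 are aacttcagaa at tRNA-Lys-TTT-4-1 and aaatatttgt at tRNA-Lys-TTT-7-1. Whether these bases decided where reads from the shared end were placed was not tested.

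By position within the tRNA, FICC-Seq counts were gathered at the start of the T-loop. The highest FICC-Seq position was 53 at 9 of 11 CTT loci, 54 at tRNA-Lys-CTT-3-1 and 58 at tRNA-Lys-CTT-13-1. It was 53 at 8 of 10 TTT loci and 54 at tRNA-Lys-TTT-3-4 and tRNA-Lys-TTT-5-1. In miCLIP it was 53 at all 21 loci, tRNA-Lys-CTT-13-1 having 1 count there and 1 at 54. In iCLIP it was 53 or 54 at 3 CTT loci and 1 TTT locus, and 58 at 1 CTT locus and 3 TTT loci. The other iCLIP maxima lay elsewhere, most of those of CTT loci at position 48, between the anticodon arm and the T-stem. Ties went to the lower position, as at tRNA-Lys-CTT-2-1, which had 42 iCLIP counts each at 48 and 58.

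**Figure D2:**
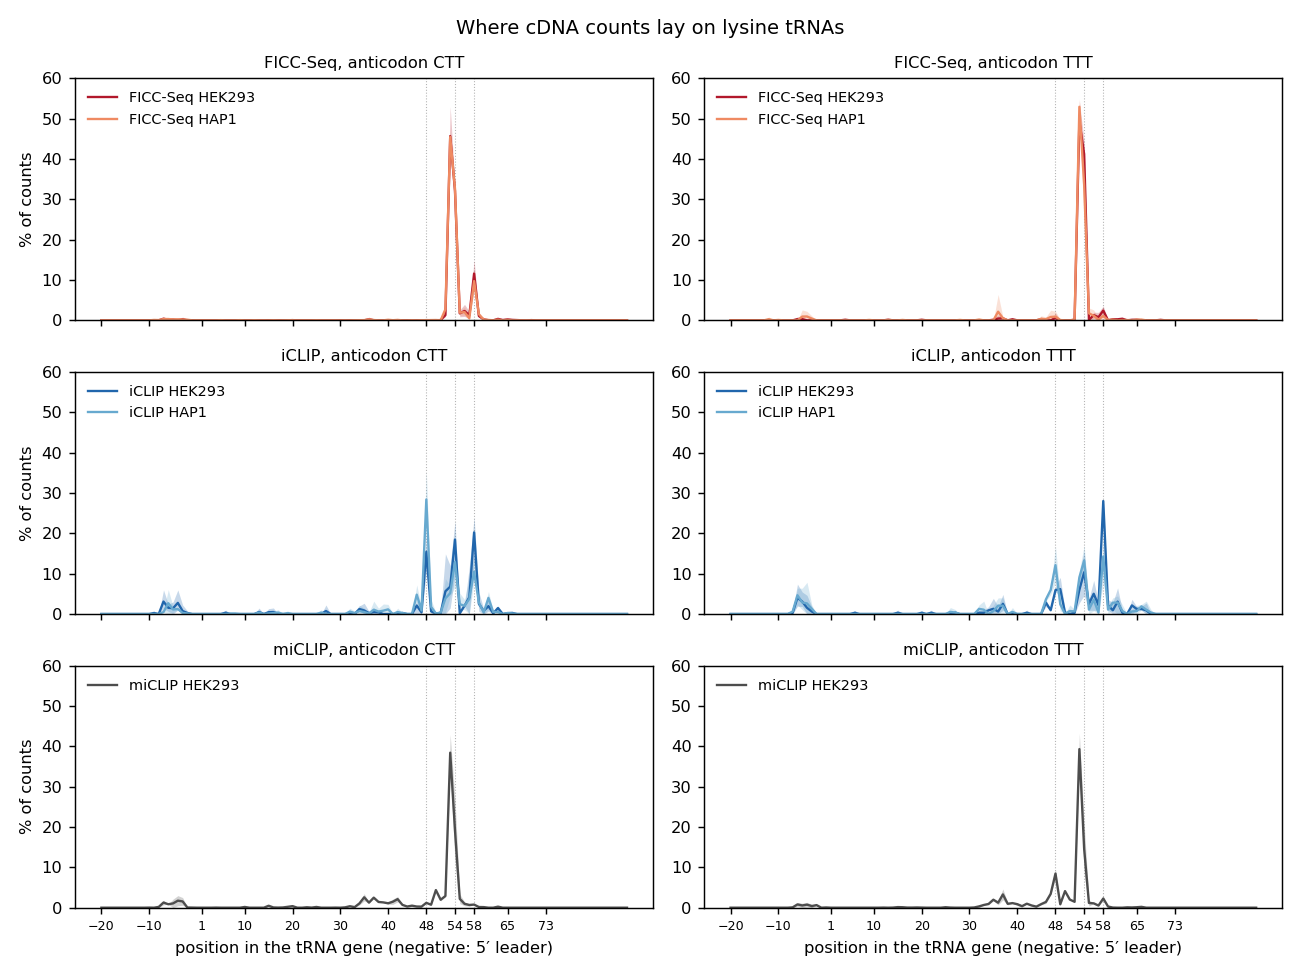
Percent of the counts of CTT (left) and TTT (right) lysine loci at each tRNA position, negative in the leader; lines are means over the libraries of a group, shading is their range, and dotted lines mark positions 48, 54 and 58. FICC-Seq shows a main peak at positions 53 and 54, miCLIP a peak at 53 with further counts in the anticodon arm and, for TTT, at 48, and iCLIP separate peaks at 48, 54 and 58.

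Positions 53 and 54 together held 79.5% ± 6.79 of the lysine counts of FICC-Seq in HEK293 and 79.0% ± 0.758 in HAP1 (n = 3 each). In iCLIP they held 21.8% ± 11 and 19.2% ± 5.63, and in miCLIP 56.1% ± 4.12 (n = 2). FICC-Seq exceeded iCLIP by 58.7 points over all lysine loci, by 56.3 over CTT and by 69.3 over TTT loci (exact permutation p = 0.005 and adjusted p = 0.0263 for each). Both anticodons thus had the same order of methods, and no FICC-Seq library overlapped an iCLIP library. Within FICC-Seq the TTT loci had the higher share, 90.7% and 86.6% in HEK293 and HAP1 against 77.8% and 78.1% for CTT, in 5 of 6 libraries, a difference of 10.7 points that missed the threshold (exact permutation within libraries, p = 0.0625). Where the 2 positions are told apart, the share of position 54 in their counts was 42.0% and 41.4% (FICC-Seq), 72.3% and 66.6% (iCLIP) and 30.2% (miCLIP), with a difference of -27.8 points between FICC-Seq and iCLIP (exact permutation p = 0.005, adjusted p = 0.0263).

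The share at positions 53 and 54 was also compared with that of the other tRNAs. Over the 218 other tRNA loci where position 54 could be placed, positions 53 and 54 held 69.5% and 63.9% of FICC-Seq counts and 20.1% and 22.1% of iCLIP counts. In FICC-Seq the lysine share was 12.6 points above that of the other tRNAs in 6 of 6 libraries (exact permutation within libraries, p = 0.0312, the smallest of 64 labelings, adjusted p = 0.0729). The FICC-Seq difference had 1 sign throughout but missed the threshold once adjusted over the 42 tests. In iCLIP the lysine difference was -0.58 points and above 0 in 2 of 6 libraries (exact permutation within libraries, p = 0.6875, adjusted p = 0.7245).

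Counted per locus, FICC-Seq exceeded iCLIP in the window of positions 53 and 54 at 9 of 10 fitted CTT loci, with a median log2 difference of 3.90, and at 9 of 10 TTT loci. Over the windows of all tRNAs, 62.4% were higher and 12.8% lower, with a median of 1.68. The one lysine locus that was lower was tRNA-Lys-TTT-7-1, where iCLIP had 31 counts at position 54 and FICC-Seq 2. This window entered the fit only with counts of the other methods, which favoured the lower direction. At tRNA-Lys-TTT-6-1, lower in FICC-Seq as a whole, FICC-Seq had 204 of 228 counts in the window and iCLIP 11 of 202, so the part of its counts that fell in FICC-Seq lay outside the window. Among loci with at least 20 FICC-Seq counts, the share in the window ran from 71.6% at tRNA-Lys-TTT-3-3 to 95.3% at tRNA-Lys-TTT-4-1 for TTT, and was 4.55%, 1 of 22 counts, at the pseudogene tRNA-Lys-CTT-13-1, whose counts lay mostly at 58.

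**Figure D3:**
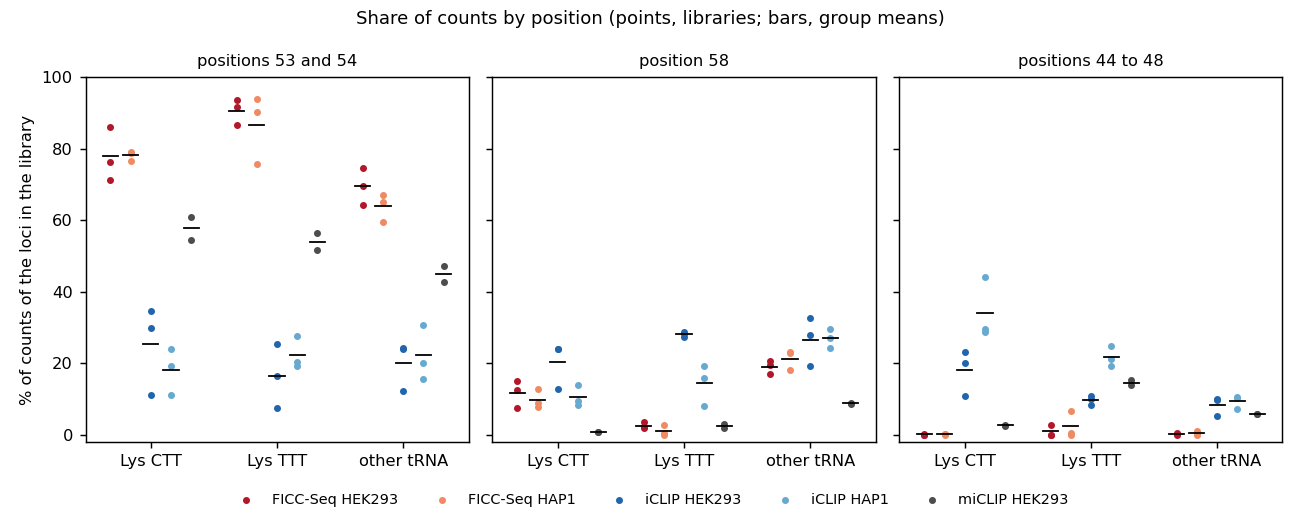
Percent of the counts of the loci in a library at positions 53 and 54, at position 58 and at positions 44 to 48, for CTT, TTT and other tRNA loci, 1 point per library with a bar at the group mean. FICC-Seq libraries are above iCLIP at 53 and 54 for both anticodons, whereas at 58 they are below iCLIP for TTT and overlap it for CTT.

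At position 58, the site of m1A, FICC-Seq was lower than iCLIP for the TTT loci. CTT loci had 11.6% ± 3.81 and 9.74% ± 2.64 of their counts there in FICC-Seq (HEK293, then HAP1) and 20.2% ± 6.54 and 10.5% ± 3.02 in iCLIP (n = 3 each). TTT loci had 2.44% ± 0.961 and 1.09% ± 1.42 in FICC-Seq but 28.0% ± 0.772 and 14.3% ± 5.71 in iCLIP. Of the 132 iCLIP counts of TTT loci at 58, tRNA-Lys-TTT-6-1 held 62 and tRNA-Lys-TTT-7-1 held 33. These genes carry most of the iCLIP share of TTT at 58, and whether it stays above that of CTT without them was not tested. For TTT, FICC-Seq was 19.4 points lower than iCLIP (difference -19.4, exact permutation p = 0.005, adjusted p = 0.0263), a call that was lost without replicate 1 of FICC-Seq in HAP1 (adjusted p = 0.0525) and with the replicate block (adjusted p = 0.0852). For CTT the difference of -4.70 points was within the spread (exact permutation p = 0.13, adjusted p = 0.171). Within FICC-Seq libraries the TTT share was below the CTT share in 6 of 6, by 8.91 points (difference -8.91, exact permutation p = 0.0312, the smallest of 64, adjusted p = 0.0729). In iCLIP it was above it in 5 of 6, by 5.79 points (exact permutation p = 0.0625, adjusted p = 0.119), and neither difference between the anticodons passed. The other tRNAs had 19% and 21.3% at position 58 in FICC-Seq, above the lysine loci in 6 of 6 libraries, at a lysine difference of -10.5 points that missed the threshold (exact permutation p = 0.0312, adjusted p = 0.0729) and was -5.48 points with position 53 placed by the highest position of the other cell line.

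Per locus, calls were made in opposite directions, but the filter on counts favoured that of TTT. In CPM at position 58, 8 of 10 fitted CTT loci were higher in FICC-Seq than in iCLIP, with a median log2 difference of 1.57, and 4 of 6 fitted TTT loci were lower, with a median of -2.43. Over all tRNAs 22.5% of these windows were higher and 38.8% lower, with a median of -0.46. The counts are few for TTT: tRNA-Lys-TTT-6-1 had 5 counts at 58 in the 6 FICC-Seq libraries and 62 in the 6 iCLIP libraries, and tRNA-Lys-TTT-7-1 had 0 and 33. No fitted TTT locus had more than 9 FICC-Seq counts at 58, under the 10 of the filter. Each thus entered the fit only with counts of the other methods, which favoured the lower direction, and nothing is read from it. With size factors from median ratios 1 CTT or TTT window at 58 was higher and 7 lower, and with a minimum of 50 counts 1 TTT window remained lower. tRNA-Lys-CTT-13-1, whose top position was 58, had 13 of 22 FICC-Seq counts and 7 of 9 iCLIP counts there.

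Between the anticodon arm and the T-stem, at positions 44 to 48, iCLIP had a larger share of its counts than FICC-Seq. These positions held 0.205% and 0.349% of lysine counts in FICC-Seq (HEK293, then HAP1), against 14.4% ± 3.39 and 30.8% ± 6.51 in iCLIP (n = 3 each). The difference was -22.4 points (exact permutation p = 0.005, adjusted p = 0.0263). Of the iCLIP counts of CTT loci, 18.0% and 34.1% lay there, and of those of TTT loci 9.67% and 21.7%, so TTT was the lower in 6 of 6 iCLIP libraries, at a difference of -10.3 points (exact permutation p = 0.0312, adjusted p = 0.0729). In miCLIP of HEK293 (n = 2) the share was 2.55% for CTT but 14.5% for TTT, the latter above the 9.67% of iCLIP in the same line. tRNA-Lys-CTT-2-1 had 53 of 201 iCLIP counts in this window and 2 of 1749 FICC-Seq counts. tRNA-Lys-CTT-3-1 had 39 of 176 and 0 of 2148. FICC-Seq had almost no counts in the window, so loci entered its fit only through the other methods and the direction was set by the filter: it was lower in FICC-Seq at 9 of 9 fitted CTT loci, 8 of 9 TTT loci (tRNA-Lys-TTT-3-3 being the exception) and 98.8% of all fitted tRNA loci, from which nothing is read. The other tRNAs had 8.33% and 9.27% of iCLIP counts there, and the lysine loci exceeded them in 6 of 6 libraries by 13.8 points, which missed the threshold (exact permutation p = 0.0312, the smallest of 64, adjusted p = 0.0729).

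miCLIP differed from FICC-Seq of the same line in which lysine genes it held. The 9 CTT loci with the same end summed to 19529 ± 1011 CPM in miCLIP (n = 2) against 78619 ± 1159 CPM in FICC-Seq, and the 6 TTT loci to 10998 ± 1021 against 9277 ± 2029 CPM. In the fit, 9 of 11 CTT loci were lower in miCLIP and 1, tRNA-Lys-CTT-5-1, was higher, with a median log2 difference of -1.83. Of the 10 TTT loci, 4 were higher (tRNA-Lys-TTT-3-3, tRNA-Lys-TTT-3-5, tRNA-Lys-TTT-6-1 and tRNA-Lys-TTT-7-1), 1 was lower (tRNA-Lys-TTT-4-1) and 5 passed in neither direction, with a median of 0.24. Over all loci 37.3% were higher and 35.8% lower, with a median of 0.04. This comparison and that with iCLIP share the FICC-Seq libraries of HEK293. With 2 miCLIP libraries the permutation test of a share cannot go below p = 0.1, which the share of lysine counts (-5.42 points) and the TTT share of them (30.2 points higher) reached (exact permutation, adjusted p = 0.135).

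**Figure D4:**
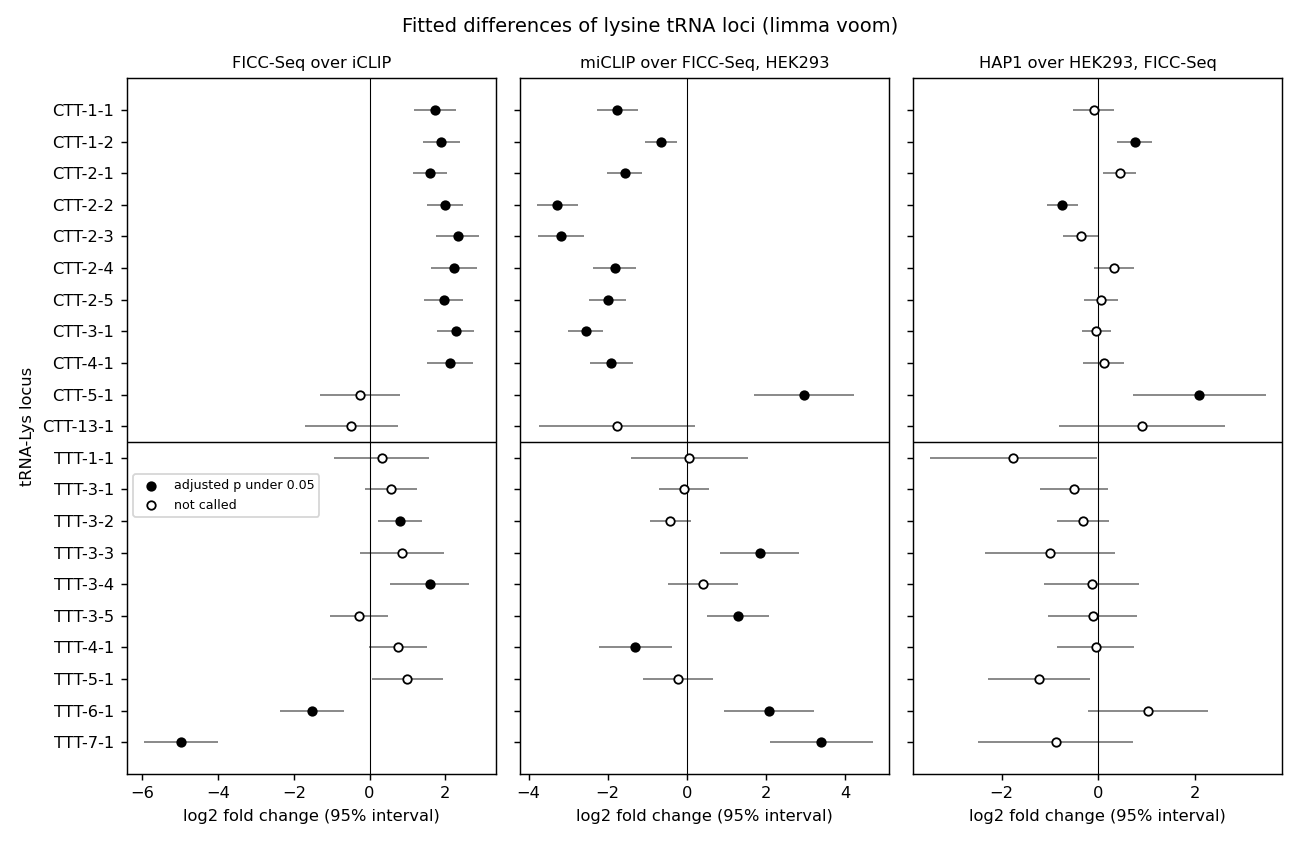
Log2 fold change of each lysine locus, for FICC-Seq over iCLIP, miCLIP over FICC-Seq in HEK293, and HAP1 over HEK293 in FICC-Seq, with its 95% interval from the fit; filled points pass the adjusted threshold. CTT loci lie right of 0 in the first comparison except tRNA-Lys-CTT-5-1 and tRNA-Lys-CTT-13-1, and left of 0 in the second except tRNA-Lys-CTT-5-1, while TTT loci lie on both sides.

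Among CTT loci that fell, fitted values ran widely. tRNA-Lys-CTT-3-1 stood at 2639 and 1950 CPM in the 2 miCLIP libraries, tRNA-Lys-CTT-2-2 at 1358 and 1596 CPM and tRNA-Lys-CTT-2-1 at 2742 and 2791 CPM, each below all 3 FICC-Seq libraries of HEK293. tRNA-Lys-CTT-1-2 stood at 5176 and 4178 CPM, the highest lysine locus in miCLIP. The log2 differences were -2.56 for tRNA-Lys-CTT-3-1 and -3.28 for tRNA-Lys-CTT-2-2, against -0.66 for tRNA-Lys-CTT-1-2 (limma adjusted p = 0.00442), and the last was lost without replicate 2 of miCLIP (-0.42), with size factors from median ratios (-0.24), with the tRNA total (-0.10, limma adjusted p = 0.615) and with limma-trend (-0.61). tRNA-Lys-CTT-5-1, with 42 and 102 counts in miCLIP against 3, 1 and 4 in FICC-Seq of HEK293, was higher by 2.96 (limma adjusted p = 0.000211).

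Of the TTT genes, tRNA-Lys-TTT-6-1 stood at 2947 and 3212 CPM in miCLIP, above the 3 FICC-Seq libraries of HEK293, with a log2 difference of 2.08 (limma adjusted p = 0.00191). tRNA-Lys-TTT-7-1 had 26 and 72 counts in miCLIP, a log2 difference of 3.39 (limma adjusted p = 6.25e-05). It entered the fit only with counts of miCLIP and iCLIP, which favoured the higher direction, and nothing is read from its p-value. By contrast, tRNA-Lys-TTT-4-1 stood at 308 and 535 CPM and was lower by 1.31 (log2 difference -1.31, limma adjusted p = 0.0119), a call that was lost with the tRNA total (-0.75, limma adjusted p = 0.0955). The sum of this pair with the shared end was 1099 ± 177 CPM in miCLIP against 1186 ± 63.1 CPM in FICC-Seq, a gap within the spread between libraries. The most abundant copies of tRNA-Lys-TTT-3 did not pass the test: tRNA-Lys-TTT-3-2 stood at 2101 and 2524 CPM, with a log2 difference of -0.42 (95% interval -0.94 to 0.11), and tRNA-Lys-TTT-3-1 at 1640 and 1922 CPM, with -0.07 (-0.71 to 0.57).

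Within the lysine tRNAs, miCLIP counts were more spread out than those of FICC-Seq. Positions 53 and 54 held 23.4 points less (difference -23.4) and positions 44 to 48 held 7.45 points more than in FICC-Seq of HEK293, both at the smallest p of the test (exact permutation p = 0.1, adjusted p = 0.135). In the window of positions 53 and 54, 9 CTT loci were lower and 1 (tRNA-Lys-CTT-5-1) higher, and 3 TTT loci were lower and 2 higher, beside 34.6% lower and 32.1% higher over all tRNAs. At position 58, miCLIP had few counts for either anticodon, 0.771% of CTT and 2.28% of TTT counts. In the fit, 10 of 10 CTT loci and 0 of 6 TTT loci were lower than in FICC-Seq, beside 51.2% of all tRNAs. No fitted CTT locus had more than 5 miCLIP counts at 58, so each entered with counts of the other methods, which favoured the lower direction. No fitted TTT locus had more than 9 FICC-Seq counts there, which left little room to be lower. Nothing is read from either outcome. At positions 44 to 48, 1 of 9 CTT and 6 of 9 TTT loci were higher in miCLIP, beside 62.4% of all tRNAs, in a fit that loci entered almost only through miCLIP and iCLIP. tRNA-Lys-TTT-6-1 had 106 of its 451 miCLIP counts in that window, and tRNA-Lys-TTT-7-1 had 43 of 98.

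The anticodon arm with the base before it, positions 26 to 43, held 16.1% ± 2.94 of CTT counts and 13.4% ± 2.75 of TTT counts in miCLIP (n = 2). In FICC-Seq its mean share was 0.394% and 0.674% for CTT, and 1.36% and 2.94% for TTT, in HEK293 and HAP1. In iCLIP the values lay between these, at 4.26% and 6.91% for CTT and 6.59% and 8.62% for TTT. The leading miCLIP positions there were 35 and 37, in and next to the anticodon. Counts 5′ of the gene, in the leader that RNase P removes from the precursor, made up 10.1% ± 8.74 and 5.92% ± 2.29 of CTT counts and 9.58% ± 6.5 and 12% ± 4.07 of TTT counts in iCLIP. In FICC-Seq the mean leader share was at most 2.69%. At tRNA-Lys-TTT-3-2 the highest iCLIP position lay in the leader, 20 of 99 counts at position -6.

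Few lysine genes passed between HEK293 and HAP1. In FICC-Seq, 2 CTT loci were higher in HAP1, tRNA-Lys-CTT-1-2 with a log2 difference of 0.76 (SE 0.17, limma adjusted p = 0.00434) and tRNA-Lys-CTT-5-1 with 2.09 (SE 0.66, limma adjusted p = 0.0390), beside 5.38% of all loci. One, tRNA-Lys-CTT-2-2, was lower, with -0.74 (SE 0.16, limma adjusted p = 0.00245), beside 7.28% of all loci, and 0 of 10 TTT loci passed. The call of tRNA-Lys-CTT-2-2 was lost with size factors from median ratios (-0.66, limma adjusted p = 0.0895) and with limma-trend (-0.73, adjusted p = 0.286), as was that of tRNA-Lys-CTT-1-2 with limma-trend (0.73, adjusted p = 0.134). tRNA-Lys-CTT-1-2 and tRNA-Lys-CTT-2-2 share their 3′ end, and in FICC-Seq the sum over the 9 loci that have it differed between the lines by less than the SD in HAP1. The call of tRNA-Lys-CTT-5-1 rests on 8 counts in HEK293 and was lost in 7 of the 14 fits that left out a library. In iCLIP 0 lysine loci passed, beside 0.633% of all loci higher and 0.633% lower. An unadjusted p under 0.05 in limma was found at 4 CTT and 0 TTT loci, beside 31 of all 316 loci. tRNA-Lys-CTT-3-1 was nearest, with a log2 difference of 1.48 (limma adjusted p = 0.179), and passed with the replicate number as a block (log2 difference 1.51, limma adjusted p = 0.0323). The log2 differences of the 11 CTT loci in iCLIP ran from 0.32 to 1.62, with a median of 0.93 beside 0.26 over all loci. Their sum over the 9 loci with the same end was 11473 to 18852 CPM in iCLIP of HEK293 and 24601 to 31110 CPM in HAP1. These sums did not overlap, and the gap was not tested. The difference between lines in the FICC-Seq to iCLIP contrast was called at no lysine locus and at 0 of all 316 loci. It had an unadjusted p under 0.05 in limma at 4 CTT and 0 TTT loci, beside 41 of all 316.

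No share of the lysine counts passed between the lines after adjustment. HAP1 minus HEK293 was -7.44 points for the TTT share, -6.84 points for the share at 58 and 8.29 points for the share at 44 to 48, each with an adjusted p of 0.0729 by the exact permutation test within methods. The share of TTT counts at 58 was nearest, at -7.54 points (exact permutation p = 0.015, adjusted p = 0.063), and passed as a mean over loci (-5.63, adjusted p = 0.042) and without replicate 3 of FICC-Seq in HAP1 (-7.94, adjusted p = 0.0262). The lysine share of the library was 0.613 points higher (exact permutation adjusted p = 0.119). Whether the lines differed in their FICC-Seq to iCLIP contrast was tested in 10 shares, and none passed (exact permutation, lowest p = 0.08, adjusted p = 0.24).

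Across the 14 libraries, the CTT family, as log2(CPM + 1), was most like tRNA-Glu-CTC (Pearson r = 0.974), tRNA-Ile-AAT (r = 0.942) and tRNA-Gly-GCC (r = 0.921) among 47 isoacceptor families. The TTT family was most like tRNA-Phe-GAA (r = 0.844), tRNA-Arg-CCG (r = 0.763) and tRNA-His-GTG (r = 0.733). The libraries fall into groups by method and share their depth, so these values describe levels across methods only.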

How the data were processed

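For each of the 14 libraries the authors deposited cDNA counts per genomic position, whole numbers whose sign gives the strand. The authors had used the iCount web server to discard duplicates by random barcodes (5 random bases, 1024 sequences), trim reads and map them with bowtie to hg19, with up to 2 mismatches and uniquely mapping reads kept. A count lies at the base before the cDNA start. The values are not scaled for depth, and lists of peaks were not used.

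Absolute counts were summed here over the windows of the loci. Positions were numbered from base 54, found in the GRCh37 sequence near the clusters by the T-loop and the base pairing of the T-stem and acceptor stem. RefSeq gave only the names and types of genes. Loci and position windows (53 and 54, 58, 44 to 48, 59 to 65, other) were fitted with limma 3.58.1 (voom, R 4.3.3) over all 14 libraries with 5 group means, library totals as sizes and at least 10 counts, with Benjamini-Hochberg adjustment over all 316 loci or all windows, at a threshold of 0.05. The fit was tested on simulated data, where windows with few counts gave a larger share of false calls than the threshold allows, most of them lower in FICC-Seq, and fewer with at least 50 counts. Shares were tested by exact two-sided permutation of libraries with numpy 2.4.6, adjusted over 42 tests. Genes given in every library were the 3 highest of each anticodon, those whose top FICC-Seq position was neither 53 nor 54, and those that went against most of their anticodon. The members and lists were chosen with earlier results of these data known.

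Between the cell lines, deviations of same-numbered libraries from their group means correlated at 0.395, 0.599 and 0.241 in FICC-Seq and at 0.253, 0.137 and 0.159 in iCLIP, each over 0.1. Libraries of different numbers were not compared, so these values cannot tell whether the replicate number pairs libraries. FICC-Seq and iCLIP correlated over 0.1 in HAP1 (0.102, 0.236 and 0.111) but not throughout in HEK293, where replicate 3 gave -0.170, and miCLIP did so with neither. Across both line and method, FICC-Seq of HAP1 with iCLIP of HEK293 gave 0.220, 0.198 and 0.065. The reverse, FICC-Seq of HEK293 with iCLIP of HAP1, gave 0.088, 0.135 and 0.111.

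The alternatives were other scalings and filters, limma-trend, a replicate block, correction for barcode collisions, a shorter window, placing position 53 by the other cell line, and leaving out each library. A minimum of 50 counts and the test of cell lines in the contrast of methods were chosen after seeing the data.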

Additional observations from a re-analysis of the deposited data

How the results depend on the processing

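Counts of lysine loci that passed moved by more than 1.5 times as follows. With limma-trend on log2(CPM + 10), 3 loci in place of 5 were higher in miCLIP than in FICC-Seq, 0 in place of 2 were higher and 0 in place of 1 lower in HAP1 in FICC-Seq, and 2 in place of 0 were higher in HAP1 in iCLIP, where the replicate block gave 1. With size factors from median ratios, 0 were lower in HAP1 in FICC-Seq. With the same factors on windows, 1 in place of 8 was higher and 7 in place of 4 lower in FICC-Seq than in iCLIP at position 58, and in miCLIP against FICC-Seq 5 in place of 3 were higher and 5 in place of 12 lower at 53 and 54, and 14 in place of 7 higher at 44 to 48. Over all tRNA windows the higher and lower calls of FICC-Seq against iCLIP were 195 and 457, 117 and 608 with these factors, 195 and 213 with at least 50 counts and 200 and 643 without a filter, and those of miCLIP against FICC-Seq 387 and 259 against 537 and 142. At least 50 counts left 1 window lower at 58 and 8 in place of 17 at 44 to 48, since fewer windows were tested, and no filter gave 8 at 58. The value that changed sign after a call was that of tRNA-Lys-TTT-3-2, FICC-Seq against iCLIP, at -0.018 with median ratios. The cause was not tested in the other cases.

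With the replicate block, the differences between FICC-Seq and iCLIP kept their values (5.69 points of the library, -22.1 for the TTT share, 58.7 at 53 and 54, -22.4 at 44 to 48, -27.8 for 54 and -19.4 for TTT at 58) but reached an adjusted p of 0.0852, since the smallest p of that permutation is 2 of 64. The share at 58 over all lysine loci (-7.88, exact permutation adjusted p = 0.063) passed at -12.1 without positions of a single count, -8.18 with collisions corrected, -9.47 with the shorter window and -9.12 as a mean over loci. Among single loci it added the call of tRNA-Lys-CTT-3-1 in iCLIP and of tRNA-Lys-CTT-13-1 in miCLIP against FICC-Seq (-2.32, limma adjusted p = 0.0136) and changed no other.

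Leaving out 1 library gave ranges of -8.81 to -6.99 for the share at 58 between FICC-Seq and iCLIP, which passed without replicate 3 of FICC-Seq in HAP1, of -21.0 to -18.2 for that of TTT, and of 0.361 to 0.775 for the lysine share between HAP1 and HEK293, which passed without replicate 2 of FICC-Seq in HAP1. Counts ranged from 1 to 2 for loci higher in HAP1 in FICC-Seq, from 0 to 3 for windows higher in miCLIP at 53 and 54 (0 without replicate 2 of miCLIP) and from 3 to 10 at 44 to 48 (3 without replicate 1 or 3 of FICC-Seq in HEK293). tRNA-Lys-TTT-3-2 (0.67, limma adjusted p = 0.0717) and tRNA-Lys-TTT-3-4 (1.29, limma adjusted p = 0.0511) lost their calls without replicate 1 of iCLIP in HEK293. Of 2751 values under alternatives, the folds of single loci lost their call in 23 cases and gained one in 14, and 51 folds and 19 shares changed sign while called in neither setting. Depth limits iCLIP most, where TTT loci held few counts.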
